A study of Mus musculus with 12 samples.

Results

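The CC chemokines described here are Ccl2, Ccl3, Ccl4, Ccl5, Ccl6, Ccl7, Ccl8, Ccl9 and Ccl11, measured in white adipose tissue of mice. Their members were the probe sets that the platform annotation assigns to 1 of these genes alone, which gave 11 of the 45101 probe sets on the array, with 2 each for Ccl6 and Ccl9 and 1 for every other gene. The tissue came from mice fed CLA and, as the control, from mice fed LA, and was taken at 4, 12 and 24 h. The labels do not spell these out, and the abbreviations usually stand for conjugated linoleic acid and linoleic acid. The labels name the fat pad only as RP tissue and give neither the strain, sex or age of the mice nor the event from which the hours were counted. Each of the 6 groups of diet and time held 2 Affymetrix arrays with the pooled RNA of 5 mice on each, so n is 2 pools in every group below. A pool averages its mice, and the spread between 2 pools is the only measure of error in a group.

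Chemokines are small secreted proteins that steer leukocytes by binding receptors on their surface, and the CC family is named for a pair of adjacent cysteines near the start of the mature protein. In white fat, Ccl2 is the best-known member, made by adipocytes, macrophages and stromal cells, and it draws monocytes into the tissue through the receptor Ccr2. Ccl7 and Ccl8 belong to the same group of monocyte chemoattractant proteins. Ccl6 and Ccl9 are rodent chemokines made by macrophages and other myeloid cells and bind Ccr1, Ccl3, Ccl4 and Ccl5 draw monocytes and T cells, and Ccl11, or eotaxin, draws eosinophils through Ccr3. All 9 genes lie on chromosome 11 in the RefSeq annotation, in 2 clusters. In the first, Ccl2, Ccl7, Ccl11, Ccl12, Ccl8 and Ccl1 are consecutive protein-coding genes, and after 25 other protein-coding genes follow Ccl5, Ccl9, Ccl6, Ccl3 and Ccl4, again without another protein-coding gene between them.

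Levels are given as scaled intensity, the brightness of a probe set after each array was scaled to a trimmed mean of 500. An intensity under 100 is called dim here, and 44.7% to 49.8% of the probe sets reached 100 on an array. All 11 members passed the filter of at least 2 of the 12 arrays at 100, which 26016 probe sets passed in all. Ccl3 passed it through the CLA pools of 24 h alone. The adipocyte genes Adipoq and Fabp4 were bright on all 12 arrays, at 35610 to 76430 and 65470 to 87940. The 2 CLA pools of 24 h stood apart on the first principal component of the kept probe sets, and replicate 1 of the CLA pools of 4 h stood apart on the second. That array had an 18S ribosomal RNA signal of 27.6, against 709 to 1442 on the other 11 arrays, and the pools of its group differed most (the SD of their log2 difference over probe sets averaging 500 or more was 0.50, and 0.23 to 0.32 elsewhere). The control probe sets for the 3' and 5' ends of beta-actin had intensity ratios (3' over 5') of 2.35 to 6.41. The highest were those of replicate 2 at 12 h, 6.10 under CLA and 6.41 under LA. In pooled tissue, more cells of a type and more RNA per cell cannot be told apart.

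At 24 h the CC chemokines were higher in the CLA pools than in the LA pools for 7 of the 9 genes, and Ccl2 was already higher at 12 h. Of the 11 probe sets, 9 passed the test at 24 h, all of them higher (limma, Benjamini-Hochberg adjusted p under 0.05), where 14.3% of all probe sets tested passed in either direction and 6.91% passed as higher. The median change of the 11 was 2.41 on the log2 scale, beside 0.05 over all probe sets tested. Leaving out Ccl3, which the filter kept because of the CLA pools of 24 h, 8 of 10 probe sets passed. At 12 h, 1 of 11 passed, beside 2.01% of all probe sets (0.999% higher), and the median change was 0.39, beside -0.0050 over all. At 4 h, 0 of 11 passed in the limma fit, beside 0.0423% of all probe sets (0.0269% higher). An unadjusted p under 0.05 was reached there by 3 of the 11, 1 higher (Ccl6) and 2 lower (Ccl2 and Ccl4). Of all 26016 probe sets tested, 1854 reached it at 4 h, 924 higher and 930 lower. Both CLA pools of 24 h lay above all 10 other arrays for 10 of the 11 probe sets, those of every gene but Ccl11. Ccl3, kept by the filter because of these pools, had to be among them. The share of all probe sets that did so was not counted. Within a time, both CLA pools lay above both LA pools for 5, 5 and 10 of the 11 probe sets at 4, 12 and 24 h, beside 15.6%, 23.2% and 32.2% of all probe sets. The split of all calls by direction moved with the scaling. With no scaling between arrays the median change of all probe sets at 24 h was 0.26, and 1725 probe sets were higher and 688 lower, against 1799 and 1909 as reported.

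**Figure D1:**
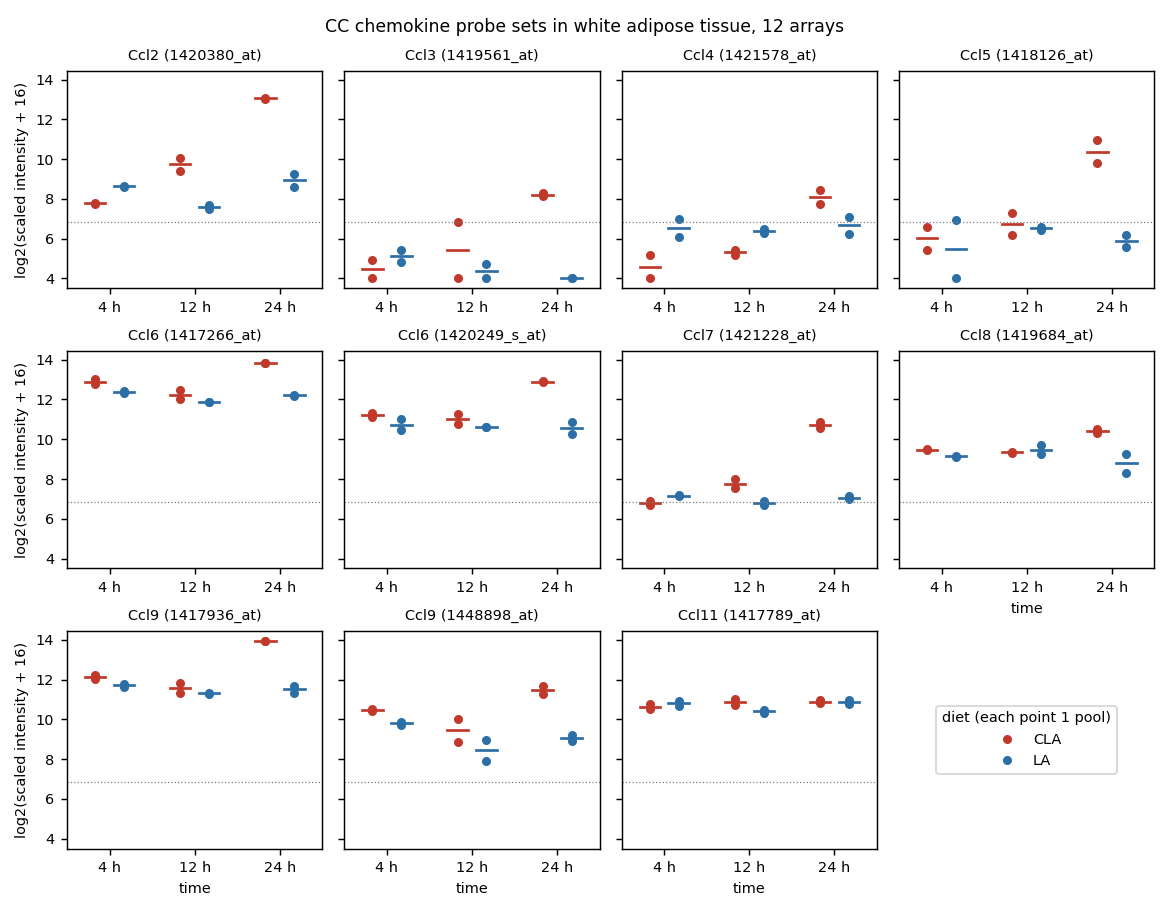
Scaled intensity of the 11 CC chemokine probe sets as log2(intensity + 16) on the vertical axis, by time (4, 12, 24 h), with CLA pools in red left of LA pools in blue. Each point is 1 pool, short lines are group means, the dotted line marks an intensity of 100, and values under 0 are drawn as 0. At 24 h the CLA points lie above the LA points in every panel except that of Ccl11.

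**Figure D2:**
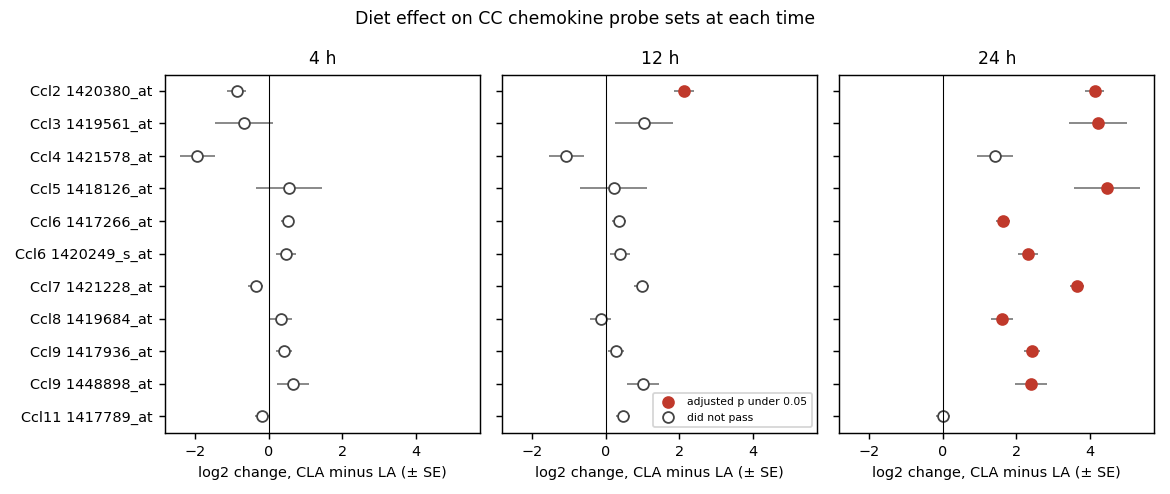
Log2 change of each CC chemokine probe set, CLA minus LA, at 4, 12 and 24 h, with bars of 1 standard error of the limma fit. Filled points passed at an adjusted p under 0.05: 0 at 4 h, Ccl2 alone at 12 h, and 9 of 11 at 24 h.

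Ccl2, the main ligand of Ccr2, was the only member called higher before 24 h in limma. At 24 h it had the largest rise among the brightly measured members. At 4 h it had 204 and 200 under CLA, against 375 and 390 under LA. At 12 h it had 667 and 1039 under CLA, against 165 and 191 under LA. The CLA pools were thus the lower ones at 4 h and the higher ones at 12 h, with no overlap at either time. The 24 h values were 8393 and 8619 under CLA, against 594 and 373 under LA. The 4 h difference of -0.87 ± 0.27 (log2, SE) did not pass (adjusted p = 0.512). At 12 h Ccl2 was 4.39-fold higher (log2 2.14 ± 0.27, adjusted p = 0.0119) and at 24 h 17.5-fold higher (log2 4.13 ± 0.27, adjusted p = 0.000313). From the highest level to the lowest, the groups ran CLA 24 h, CLA 12 h, LA 24 h, LA 4 h, CLA 4 h and LA 12 h, and of neighbours in this order only LA 24 h and LA 4 h overlapped. The 12 h call was lost when 1 of 3 arrays was left out: the adjusted p was 0.0585 without CLA 12 h replicate 2, 0.0765 without LA 12 h replicate 1 and 0.0827 without LA 12 h replicate 2. It was also lost when only the 12 h groups were fitted (adjusted p = 0.185).

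Ccl7, which binds Ccr2 among other receptors, was dim or close to it in every group but the CLA pools of 12 and 24 h. At 4 h it had 104 and 88.5 under CLA, against 125 and 128 under LA. At 12 h it had 172 and 236 under CLA, against 102 and 87.0 under LA. As with Ccl2, both CLA pools were below both LA pools at 4 h and above them at 12 h. The values of 24 h were 1520 and 1829 under CLA, against 113 and 124 under LA. It was 12.5-fold higher at 24 h (log2 3.65 ± 0.20, adjusted p = 0.000159). At 12 h its difference of at least 1.86-fold narrowly missed the threshold (adjusted p = 0.0522), where "at least" means that a dim array of the lower group was set at 100. The 4 h difference, -0.35 ± 0.20 on the log2 scale, had an adjusted p of 0.819.

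Ccl8, whose mouse protein acts on Ccr8, was well measured in every group. At 4 h it had 686 and 711 under CLA, against 538 and 562 under LA. At 12 h it had 643 and 618 under CLA, against 816 and 593 under LA. These values were separate by diet at 4 h and overlapped at 12 h. At 24 h it had 1237 and 1428 under CLA, against 592 and 303 under LA. The 24 h rise was 3.05-fold (log2 1.61 ± 0.30, adjusted p = 0.0112), and it was lost without CLA 24 h replicate 2 (adjusted p = 0.0809) and with only the 24 h groups fitted (adjusted p = 0.0975). The LA pools of 24 h, which lay 1.95-fold apart in intensity, were the most uneven pair of this probe set.

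Ccl6 and Ccl9, the Ccr1 ligands, were bright in the LA pools as well as in the CLA pools, and the change in both was concentrated at 24 h. The first Ccl6 probe set (1417266_at) had 8326 and 6981 under CLA at 4 h, against 5148 and 5510 under LA, and 5596 and 4171 under CLA at 12 h, against 3796 and 3713 under LA. It reached 14749 and 14619 under CLA at 24 h, against 4772 and 4675 under LA. The CLA pools were the higher ones at all 3 times, without overlap, but only the 24 h difference passed, at 3.10-fold (log2 1.63 ± 0.19, adjusted p = 0.0018), and those of 4 h and 12 h were 0.52 ± 0.19 (adjusted p = 0.596) and 0.36 ± 0.19 (adjusted p = 0.417). The second Ccl6 probe set (1420249_s_at), whose suffix marks probes that can match more than 1 transcript, had 7661 and 7539 under CLA at 24 h, against 1869 and 1229 under LA, a 4.97-fold rise (log2 2.31 ± 0.28, adjusted p = 0.00229). At the earlier times it had 2209 and 2504 (4 h) and 2460 and 1724 (12 h) under CLA, against 1395 and 2061 (4 h) and 1573 and 1564 (12 h) under LA. The 2 probe sets of Ccl6 thus agreed in direction at every time, with fitted 24 h changes that differ by 0.68 on the log2 scale.

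Ccl9 followed the same course. Its brighter probe set (1417936_at) had 4730 and 4134 under CLA at 4 h, against 3175 and 3484 under LA, and 3686 and 2527 under CLA at 12 h, against 2584 and 2476 under LA. The diets were separate at 4 h and overlapped at 12 h. At 24 h it had 15854 and 15482 under CLA, against 3252 and 2569 under LA, which was 5.40-fold higher (log2 2.43 ± 0.22, adjusted p = 0.000821). Its other probe set (1448898_at) had 3297 and 2422 under CLA at 24 h, against 584 and 461 under LA. That rise was 5.31-fold (log2 2.41 ± 0.44, adjusted p = 0.0109), close to that of the first probe set. It was lost without CLA 24 h replicate 1 (adjusted p = 0.068) and without LA 24 h replicate 2 (adjusted p = 0.063). At 4 h this probe set had 1466 and 1335 under CLA, against 835 and 932 under LA, and at 12 h 1035 and 451 under CLA, against 486 and 226 under LA. Neither difference passed (adjusted p = 0.866 and 0.328).

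The promoters of Ccl9 and Ccl6 are shown because these neighbouring genes had closely matching profiles over the arrays, and that of Ccl8 as a member of the first cluster. The sequences are those of RefSeq on GRCm38.p6, from 250 bases before the annotated start, which is base 0, through the first 30 transcribed bases. They are the Ccl9 promoter at chr11:83578607-83578886 on the minus strand, the Ccl6 promoter at chr11:83593058-83593337 on the minus strand and the Ccl8 promoter at chr11:82114935-82115214 on the plus strand. In Ccl9 and Ccl6, capitals mark the bases that are identical in the best local alignment of the 2 promoters, and in Ccl8 they mark the letters TATAAA.
Ccl9: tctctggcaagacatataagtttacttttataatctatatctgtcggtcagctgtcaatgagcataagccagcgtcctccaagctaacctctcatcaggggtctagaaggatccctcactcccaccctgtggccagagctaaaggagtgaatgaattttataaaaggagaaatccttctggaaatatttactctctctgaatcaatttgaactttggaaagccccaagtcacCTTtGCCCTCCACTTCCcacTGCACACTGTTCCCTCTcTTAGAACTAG
Ccl6: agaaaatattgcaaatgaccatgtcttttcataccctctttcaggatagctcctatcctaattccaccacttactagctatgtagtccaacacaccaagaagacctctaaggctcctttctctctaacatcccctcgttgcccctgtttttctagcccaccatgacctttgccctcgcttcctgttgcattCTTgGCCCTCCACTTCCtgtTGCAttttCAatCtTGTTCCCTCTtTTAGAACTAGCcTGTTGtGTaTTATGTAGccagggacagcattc
Ccl8: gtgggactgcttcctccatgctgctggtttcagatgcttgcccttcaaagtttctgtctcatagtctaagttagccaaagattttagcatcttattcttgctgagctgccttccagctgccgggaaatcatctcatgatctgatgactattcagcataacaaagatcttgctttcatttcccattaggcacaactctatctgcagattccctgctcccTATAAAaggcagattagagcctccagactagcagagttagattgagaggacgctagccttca
The best local alignment of Ccl9 and Ccl6 held 59 identical bases over 74 aligned positions (79.7%), and the longest run of identical bases was 13. It runs over bases -18 to 48 of Ccl9, not all of them printed, and over bases -59 to 14 of Ccl6, so the shared stretch lies at a different distance from each annotated start. Among the other 5 pairs of the Ccl3, Ccl6, Ccl8 and Ccl9 promoters, the best local alignments were 60.2% to 72.4% identical over 29 to 118 positions. In these 4 promoters, over the full window of 250 bases before to 50 bases after the start, 5 motifs were searched on both strands. The NF-kB consensus was found in Ccl9 alone, at base -35 on the minus strand, and 5.80% of the 32851 promoters in the table hold it. The AP-1 letters TGANTCA, which read the same on both strands, were found in Ccl9 alone, at base -53 (7.81% of all promoters). The ETS letters AGGAAGT were found in Ccl6 alone, at base -48 on the minus strand (9.35%). The C/EBP letters TTGCNNAA were in none of the 4 (10.8%). TATAAA was found in Ccl8 at base -32, and in Ccl9 at base -92 with an overlapping match on the minus strand at -94 and another at -224 (13.6%). A match says only that the letters are present.

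Ccl3, Ccl4 and Ccl5, attractants of monocytes and T cells, were dim in nearly all pools before 24 h. Ccl5, which many lymphocytes and macrophages can make, had 866 and 1957 under CLA at 24 h, against 57.2 and 32.5 under LA. At 4 h it had 26.9 and 81.5 under CLA, against 105 and -18.0 under LA, and at 12 h 56.8 and 140 under CLA, against 80.2 and 71.8 under LA. The diets overlapped at 4 and 12 h and were far apart at 24 h, where Ccl5 was at least 11.4-fold higher (adjusted p = 0.0158). The 2 CLA pools of 24 h differed 2.26-fold from each other, the widest gap between these pools among the 11 probe sets. The call was lost without CLA 24 h replicate 2 (adjusted p = 0.108), LA 24 h replicate 1 (0.0547) or LA 24 h replicate 2 (0.0815).

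Ccl3 reached 100 only in the CLA pools of 24 h and passed the filter through them, so it had to differ there. Its test at 24 h therefore adds no support. It had 265 and 301 there, against -6.47 and -37.1 under LA, negative values being set to 0 before the log. The other 8 arrays lay between -24.1 and 98.1. At 24 h it was at least 2.57-fold higher (adjusted p = 0.0119), and the call was lost without any 1 of the 4 arrays of 24 h, with adjusted p from 0.0551 to 0.0757. Ccl4, its neighbour in the genome, had 335 and 197 under CLA at 24 h, against 60.4 and 120 under LA. The pools did not overlap, but the difference of at least 2.17-fold did not pass (log2 1.42 ± 0.48, adjusted p = 0.0908). With an offset of 64 in place of 16 under the log it did pass (log2 1.09, adjusted p = 0.032). At 4 h Ccl4 had -23.9 and 19.8 under CLA, against 109 and 51.2 under LA, and at 12 h 20.8 and 27.7 under CLA, against 61.3 and 75.0 under LA. The CLA pools were the lower ones at both times, and 7 of these 8 values were dim.

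Ccl11, the eosinophil attractant, was bright in every group and was the member whose CLA and LA pools overlapped at 24 h. At 4 h it had 1432 and 1709 under CLA, against 1925 and 1623 under LA. At 12 h it had 2042 and 1675 under CLA, against 1409 and 1275 under LA. The pools overlapped at 4 h and were separate at 12 h, where the difference of 0.46 ± 0.19 on the log2 scale did not pass (adjusted p = 0.299). At 24 h it had 1975 and 1815 under CLA, against 1740 and 2020 under LA. The 24 h change was 0.01 ± 0.19, with a 95% interval of -0.42 to 0.45, and its sign turned with the setting (-0.01 with arrays scaled to a common median, -0.05 without CLA 24 h replicate 1 and -0.09 without LA 24 h replicate 1). Over the 12 arrays Ccl11 ran from 1275 to 2042, a 1.60-fold range, and no 2 groups that were neighbours in the order of their means were separate except CLA 4 h and LA 12 h.

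Whether the diet effect changed between times was tested as the difference between 2 diet effects. From 4 to 24 h it rose in 5 of the 11 probe sets, beside 3.04% of all probe sets tested (1.47% higher). The gains were 5.00 ± 0.38 on the log2 scale for Ccl2 (adjusted p = 0.00228), 4.00 ± 0.28 for Ccl7 (0.00228), 3.36 ± 0.68 for Ccl4 (0.0432), 2.02 ± 0.31 for Ccl9 (1417936_at, 0.02) and 1.85 ± 0.39 for Ccl6 (1420249_s_at, 0.0499). The other probe sets of Ccl9 (1448898_at, 1.75 ± 0.62, 0.162) and Ccl6 (1417266_at, 1.12 ± 0.26, 0.0646) did not pass. For Ccl2 and Ccl7 the call held under all 20 alternatives tried. That of Ccl4 rests on dim values at 4 h and was lost under 16 of 20 alternatives, and that of Ccl6 under 16 of 19. Each was lost without any 1 array except CLA 4 h replicate 2, with adjusted p from 0.0716 to 0.123 for Ccl4 and from 0.0572 to 0.152 for Ccl6. For Ccl9 it was lost without 1 of LA 4 h replicate 1 or 2, CLA 24 h replicate 1 or 2, or LA 24 h replicate 2 (adjusted p from 0.0617 to 0.0834).

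From 12 to 24 h the effect rose in 2 of the 11 probe sets, beside 0.488% of all (0.323% higher), by 2.67 ± 0.28 for Ccl7 (adjusted p = 0.0135) and 2.16 ± 0.31 for Ccl9 (1417936_at, 0.0379). The other Ccl9 probe set (1448898_at) did not pass, at 1.40 ± 0.62 (adjusted p = 0.301). The gain of Ccl2 over this step, 1.99 ± 0.38, had an adjusted p of 0.0711. Leaving out 1 array took the Ccl7 call away for CLA 12 h replicate 1, either LA 12 h pool or either CLA 24 h pool (adjusted p from 0.0532 to 0.091). The Ccl9 call was lost without any 1 array other than the 2 CLA pools of 4 h (adjusted p from 0.0542 to 0.15). From 4 to 12 h, 0 of the 11 probe sets and 0 of all 26016 passed in limma. An unadjusted p under 0.05 was reached by 3 of the 11 and by 2199 of all. Ccl2 had the largest gain of the 11 over this step, 3.0 ± 0.38 (adjusted p = 0.118), and Ccl7 had 1.33 ± 0.28 (0.264).

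Averaged over the 3 times, 6 of the 11 probe sets were higher in the CLA pools, beside 9.64% of all probe sets called in either direction and 4.69% called higher. They were those of Ccl2 (log2 1.80 ± 0.15, adjusted p = 0.000833), Ccl7 (1.43 ± 0.12, 0.000686) and the 2 each of Ccl6 (0.84 ± 0.11 and 1.06 ± 0.16) and Ccl9 (1.04 ± 0.13 and 1.36 ± 0.25). At 4, 12 and 24 h the changes were -0.87, 2.14 and 4.13 for Ccl2 and -0.35, 0.98 and 3.65 for Ccl7. The averages thus join effects of unlike size, for these genes of both signs, though neither 4 h change passed. In the LA pools alone, 0 of the 11 passed between any 2 times in limma, and 0 of all probe sets did. Unadjusted p-values under 0.05 were reached by 3 of the 11 between 4 and 12 h, all lower at 12 h, by 3 between 12 and 24 h (2 higher and 1 lower at 24 h) and by 0 between 4 and 24 h. Of all 26016 probe sets tested, 3954, 2569 and 2104 reached this in the same comparisons. The smallest p was that of Ccl2, which was 1.33 ± 0.27 higher on the log2 scale at 24 h than at 12 h (unadjusted p = 0.00101, adjusted p = 0.27).

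The members did not all follow 1 profile. As a description over the arrays, which share groups, Pearson's r of the log2 values had a median of 0.72 over the 53 pairs of probe sets of different genes on all 12 arrays. On the 10 arrays other than the CLA pools of 24 h the median was 0.08, and 3 pairs were over 0.85. These were Ccl2 with Ccl7 (0.890, and 0.975 on 12 arrays) and Ccl6 (1417266_at) with both probe sets of Ccl9 (0.959 and 0.918, and 0.974 and 0.941 on 12 arrays). Ccl2 and this Ccl6 probe set had 0.767 on 12 arrays and -0.155 on the 10. Within a gene, the 2 probe sets of Ccl6 had 0.929 on 12 arrays and 0.658 on 10, and those of Ccl9 had 0.889 and 0.926. Among probe sets of other genes, the 3 most like Ccl2 over 12 arrays were those of Sgtb (r = 0.974), a co-chaperone, Atp13a3 (0.971), a transporter of the P-type ATPase family, and Cxcl2 (0.965), a neutrophil-attracting chemokine. On the 10 arrays these had 0.873, 0.820 and 0.760.

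Ccr1 and Ccr2, which bind several of the members, were higher at 24 h. Of 10 CC chemokine receptor genes on the array, 4 passed the filter, and of these 2 rose at 24 h, with a median change of 1.44 beside 0.05 over all probe sets. The share of all probe sets called higher was 6.91%. Ccr2, the receptor of Ccl2 and Ccl7, had 3116 and 3467 under CLA, against 1153 and 724 under LA, and was 3.55-fold higher (adjusted p = 0.00289). Ccr1, the receptor of Ccl6 and Ccl9, had 731 and 742 under CLA, against 187 and 65.1 under LA, and was at least 4.90-fold higher (adjusted p = 0.00911). Neither overlapped at 24 h. At 4 and 12 h, 0 of the 4 passed in limma: the smallest p at 4 h was that of Ccrl2, a receptor-like protein that does not signal, at least 1.85-fold lower in the CLA pools (unadjusted p = 0.0069, adjusted p = 0.464), and at 12 h that of Ccr6 (unadjusted p = 0.0415, adjusted p = 0.3), which was at 100 only in the CLA pools of 12 h. Ccr6 passed the filter through those pools, so it had to differ at 12 h, and its p there adds no support. At 4 h and at 12 h 1 of the 4 had an unadjusted p under 0.05, which at 12 h was this Ccr6. Of all 26016 probe sets tested, 1854 did at 4 h and 3979 at 12 h. Ccr3, the receptor of Ccl11, reached 100 on 0 of the 12 arrays.

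The 3 atypical receptors, which bind chemokines without the usual signal, had changes of both signs at 24 h. Ackr2, which takes up and clears inflammatory CC chemokines, had 321 and 291 under CLA at 24 h, against 558 and 628 under LA, and fell by 0.92 ± 0.20 on the log2 scale (adjusted p = 0.0231). Ackr1 had 645 and 522 under CLA, against 224 and 322 under LA, a change of 1.07 ± 0.35 that did not pass (adjusted p = 0.0854), and Ackr4 was at least 2.37-fold higher without passing (adjusted p = 0.108). Of 9 further CC chemokine genes on the array, 6 passed the filter, and of these 1 rose at 24 h, beside 6.91% of all probe sets. It was Ccl12, a monocyte attractant that lies between Ccl11 and Ccl8, with 677 and 778 under CLA, against 25.2 and 56.2 under LA, at least 6.40-fold higher (adjusted p = 0.0175). Ccl27a, a chemokine of the skin that draws T cells, had 114 and 75.3 under CLA, against 234 and 333 under LA, a 24 h difference of -1.44 ± 0.44 that did not pass (adjusted p = 0.0655). Averaged over the 3 times it was the 1 gene of these 6 that passed, with a change of -1.06 ± 0.25 on the log2 scale (adjusted p = 0.0365). Of all probe sets tested, 9.64% passed in that comparison.

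**Figure D3:**
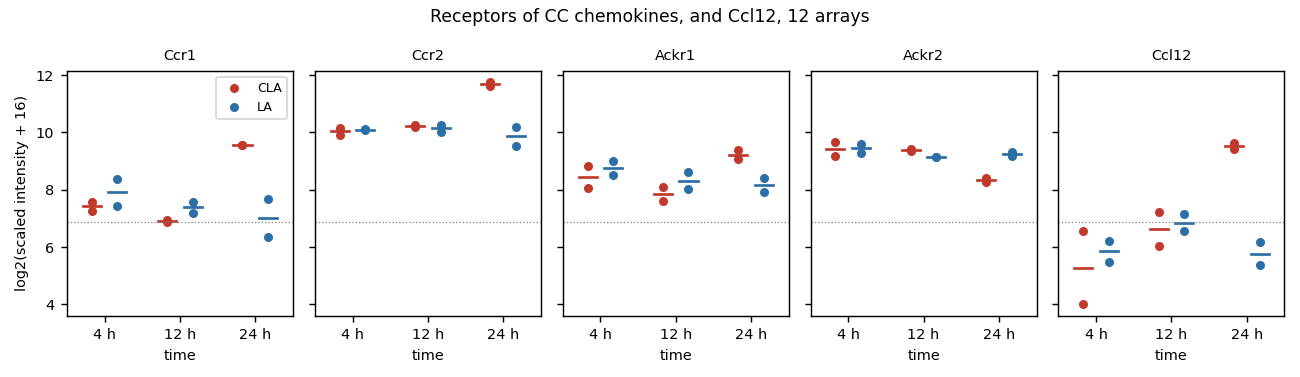
Scaled intensity as log2(intensity + 16) of Ccr1, Ccr2, Ackr1, Ackr2 and Ccl12 by time, with CLA pools in red left of LA pools in blue. Points are pools, short lines are group means and the dotted line marks an intensity of 100. The CLA pools of 24 h are above the LA pools for all but Ackr2, for which they are below.

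The CXC chemokines, the sister family whose members mostly attract neutrophils and lymphocytes, rose at 24 h in 8 of 11 genes tested, with a median change of 1.69. Of all probe sets tested, 6.91% were called higher at 24 h and 0.999% at 12 h. Cxcl3 and Cxcl5 were at 100 only in the CLA pools of 24 h and passed the filter through them, so they had to differ. Without these genes 6 of 9 rose, with a median of 1.61. The 4 with the largest fitted change were Cxcl1, 50.7-fold higher (10190 and 10240 under CLA, against 154 and 224 under LA), Cxcl3 (at least 11.7-fold), Cxcl2 (at least 23.0-fold) and Cxcl10 (at least 32.3-fold). Their adjusted p lay between 0.000192 and 0.0011. At 12 h, 3 of the 11 rose: Cxcl10 at least 19.7-fold (adjusted p = 0.00822), Cxcl1 11-fold (0.00822) and Cxcl2 at least 1.64-fold (0.0227). At 4 h 0 of 11 passed in limma, and Cxcl3, dim in all 4 pools, was the 1 gene with an unadjusted p under 0.05.

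Of 17 inducers and regulators of chemokine transcription on the array, 13 passed the filter, and 7 of these rose at 24 h, beside 6.91% of all probe sets. Il6 was at 100 only in the CLA pools of 24 h and passed the filter through them, and without it 6 of 12 rose. The largest fitted changes were those of the cytokines Il6 (at least 2.45-fold, adjusted p = 0.00684) and Il1b (at least 4.41-fold, 0.0017), followed by Tnfaip3 (3.24-fold, 0.0211) and Nfkbiz (3.07-fold, 0.0056), both NF-kB target genes that act back on that pathway. At 12 h only Jun, a subunit of AP-1, passed among the 13, beside 0.999% of all probe sets called higher. Jun had 1862 and 2092 under CLA at 12 h, against 723 and 834 under LA, and was 2.51-fold higher (adjusted p = 0.0205). At 4 h Jun had 1556 and 1901 under CLA, against 740 and 892 under LA, separate but not past the threshold (log2 1.07 ± 0.20, adjusted p = 0.213), and at 4 h 0 of the 13 passed in limma, with Jun the 1 gene at an unadjusted p under 0.05. Tnf, Ifng, Il4 and Il13 reached 100 on 0 of the 12 arrays.

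Markers of the cells that make or follow these chemokines moved with the 24 h result in part. Of all probe sets tested, 6.91% were called higher at 24 h and 14.3% in either direction. Of 10 macrophage markers tested, 3 rose at 24 h, Fcgr1 (at least 7.94-fold, adjusted p = 0.00177), Mpeg1 (log2 2.07, 0.00354) and Cd14 (log2 1.93, 0.00491). The widely used macrophage markers Adgre1 and Csf1r had changes of 0.10 ± 0.20 and 0.11 ± 0.16 (adjusted p = 0.788 and 0.706). The summed intensity of the 10 was 39032 and 33382 under CLA at 24 h, against 24988 and 21539 under LA. At the earlier times it was 29223 and 25678 (4 h) and 28171 and 25049 (12 h) under CLA, against 24067 and 22124 (4 h) and 23565 and 21375 (12 h) under LA. Of 7 neutrophil markers on the array 5 were tested and 3 rose at 24 h (S100a9 at least 9.39-fold, S100a8 log2 1.69, and Csf3r at least 1.30-fold), with sums of 3500 and 2582 under CLA, against 767 and 785 under LA. Csf3r was at 100 only in the CLA pools of 24 h, and without it 2 of 4 rose, with a median change of 1.04. Mpo had a value of the other sign, with 38.2 and -25.2 under CLA, against 47.1 and 145 under LA (log2 -1.77, adjusted p = 0.139). Cxcr2 and Camp reached 100 on 0 of the 12 arrays. Of 4 eosinophil markers, 0 passed the filter, and of 6 T and NK cell markers 1 did (Cd8a, log2 -1.24 at 24 h, adjusted p = 0.455), with sums of 87.7 and 265 under CLA at 24 h, against 153 and 239 under LA.

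Of 7 adipocyte markers, 5 fell at 24 h, beside 1909 of all 26016 probe sets tested. The 7 summed to 173467 and 173969 under CLA, against 239757 and 261842 under LA. Skeletal muscle markers, 6 in number, summed to 1821 and 3974 under CLA at 4 h, against 1500 and 1358 under LA, and to 4617 and 3192 under CLA at 12 h, against 1575 and 1566 under LA. At 24 h the muscle sums overlapped, at 1514 and 1276 under CLA, against 931 and 1950 under LA. Among 6 other lists (B cells, mast cells, fibroblasts and preadipocytes, endothelium, mesothelium and liver), 1 gene rose at 24 h, the fibroblast marker Pdgfra (log2 0.67, adjusted p = 0.0317), and 1 fell, the liver gene Alb (by 1.60 on the log2 scale, 0.0142). In that order these lists held 2, 5, 6, 4, 5 and 4 tested genes. Calls were thus no more frequent in them than among all probe sets (6.91% higher, 14.3% in either direction). The other 3 liver genes, Apoa1, Apoa2 and Ttr, were also lower in both CLA pools of 24 h without passing (adjusted p from 0.0692 to 0.146), and the median of the 4 was -1.75. The 4 summed to 2200 and 3615 under CLA at 24 h, against 11782 and 7573 under LA. At the earlier times they summed to 6644 and 3647 (4 h) and 1595 and 1615 (12 h) under CLA, against 2301 and 2271 (4 h) and 2417 and 3335 (12 h) under LA. The part of these cell markers in the chemokine changes was not tested.

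**Figure D4:**
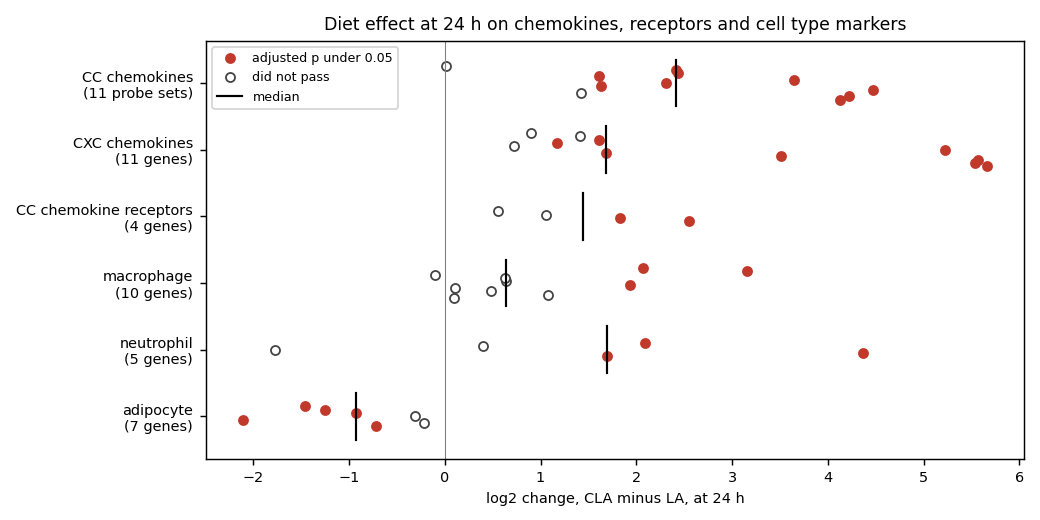
Log2 change at 24 h, CLA minus LA, of the 11 CC chemokine probe sets and of the genes of 5 lists, each point 1 probe set (1 per gene in the lists). Filled points passed at an adjusted p under 0.05, and bars mark the median. Medians were 2.41 for the CC chemokines, 1.69 for the CXC chemokines and 1.44 for CC chemokine receptors. Those of the macrophage, neutrophil and adipocyte markers were 0.64, 1.69 and -0.92. Ccl3, Cxcl3, Cxcl5 and Csf3r were at 100 only in the CLA pools of 24 h.

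The authors' deposited tables of ratios, read as CLA over LA, listed 3, 5 and 11 of the 11 probe sets as higher at a p-value under 0.05 at 4, 12 and 24 h, beside 1.36%, 5.17% and 9.45% of all probe sets. These p-values are not known to be adjusted. For Ccl2 the authors' deposited tables gave ratios of 0.528 (p = 0.0357) at 4 h, 4.74 (p = 1.57e-08) at 12 h and 24.4 at 24 h, where the p was listed as 0. For Ccl7 the authors' deposited tables gave 2.45 (p = 0.0119) at 12 h and 14.6 at 24 h. The authors' deposited table of 24 h also called the 2 genes that limma did not, Ccl4 at a ratio of 3.58 (p = 0.00042) and Ccl11 at 1.24 (p = 0.0397). For Ccl4 at 12 h, where every pool was dim, the authors' deposited ratio was 1.43 (p = 0.459). The limma fit had the other sign there (log2 -1.07) and did not pass either.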

How the data were processed

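RNA of pooled white adipose tissue was measured on 12 Affymetrix arrays, in 6 groups of diet (CLA or LA) and time. Biotinylated cRNA was made from Trizol-extracted total RNA, per the labels' protocols. The deposited table holds 1 linear intensity per probe set and array, with 15.7% to 18.8% of the values at or below 0 and means of 91.5 to 125.1. The summarisation software is not given in the sources used here. Per the file headers, the authors also deposited, for each time, a ratio with its log10 ratio and a p-value per probe set, with no stated test or error model. The headers do not name the diets. They were read as CLA over LA because, over 10270 bright probe sets, the log ratios and the differences between diets of the same time had r = 0.877, 0.964 and 0.977 (probe sets are not independent).

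A trimmed mean, without 2% at each end, was brought to 500 on every array. The log2 was taken of the value plus 16, with negative values as 0, so a fold is a ratio of intensity plus 16, which understates changes of dim probe sets. Apart from 64 control probe sets, those with at least 2 of 12 arrays at 100 were kept (26016). A single limma 3.58.1 fit (R 4.3.3, lmFit with eBayes) held all 6 groups, with 6 residual and 2.13 prior degrees of freedom. Tests were two-sided, and p was adjusted by Benjamini-Hochberg over all kept probe sets, and called under 0.05. Each ± is the standard error from that fit. Where the lower group held dim arrays, 100 stood in for them and "at least" precedes the fold. The number of arrays limits the precision. The script was tested on simulated data.

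The members and all gene lists were chosen with earlier results of these data known. All 11 member probe sets were matched to RefSeq by gene ID. Of each list every gene was counted by its brightest probe set, and up to 4 genes that passed with the largest change, else the 2 with the smallest p, were named at each time. Likeness was Pearson's r, and genes most like a member were named for Ccl2, the 1 gene called at more than 1 time. Promoters came from the RefSeq table, which matched 4 of the 9 genes, and were aligned with Biopython 1.88. Replicate numbers were checked for pairing: deviations of same-numbered pools from their group means correlated at 0.09, 0.08 and 0.06 at 4, 12 and 24 h, and at 0.30, 0.42 and -0.04 over probe sets averaging 500 or more. Neither was over 0.1 at all 3 times, and the labels give no shared source, so the numbers were not taken as pairs. Alternatives varied scaling, offset, filter, probe sets per gene, the groups fitted, the replicate block and each array left out.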

Additional observations from a re-analysis of the deposited data

Results flagged for a closer look

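For 5 of the 9 genes the diet effect differed between times by the test of that difference in limma. Between 4 and 24 h the effect of CLA against LA grew for Ccl2 by 5.00 on the log2 scale (adjusted p = 0.00228) and for Ccl7 by 4.00 (0.00228). For Ccl4 it grew by 3.36 (0.0432), for Ccl9 (1417936_at) by 2.02 (0.02) and for Ccl6 (1420249_s_at) by 1.85 (0.0499). Between 12 and 24 h it grew for Ccl7 by 2.67 (adjusted p = 0.0135) and for Ccl9 (1417936_at) by 2.16 (0.0379). The other probe sets of Ccl6 (1417266_at) and Ccl9 (1448898_at) did not pass between 4 and 24 h (adjusted p = 0.0646 and 0.162). Between 12 and 24 h Ccl9 1448898_at did not pass either (0.301). The Ccl4 call between 4 and 24 h was lost under 16 of 20 alternatives, and that of Ccl6 under 16 of 19. The effects of Ccl2 and Ccl7 had opposite signs at 4 and 24 h in all pools, below LA at 4 h and above LA at 24 h. The same was so for Ccl4, whose values were dim at 4 h on 3 of 4 arrays. None of these 4 h differences passed in limma (adjusted p = 0.512 for Ccl2, 0.819 for Ccl7 and 0.385 for Ccl4). Groups held 2 pools, too few to test a single pool against its group.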

How the results depend on the processing

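The counts of CC chemokine probe sets called at 24 h (6 to 10 of 11 under 20 alternatives, 9 as reported) and averaged over the times (5 to 9, 6 as reported) stayed within 1.5 times the reported count, and those at 4 h, between 4 and 12 h and within the LA pools were 0 under every alternative run. The 12 h count of 1 became 2 with one probe set a gene and 0 with only the groups compared, and 0 to 1 with 1 array left out. The count of 2 for the change from 12 to 24 h became 1 with a common median, 4 with an offset of 64, 4 with one probe set a gene and 0 with only the groups compared, and 0 to 2 with 1 array left out. The count of 5 for the change from 4 to 24 h became 3 with no scaling, a common median, no filter or only the groups compared, 8 with an offset of 64, and 2 to 5 with 1 array left out. The pairing check differed between all and bright probe sets at 4 and 12 h (0.09 and 0.08, against 0.30 and 0.42 over the bright ones), and the replicate numbers were not taken as pairs. With the replicate block this count was 3, and no call at 12 or 24 h was lost. With 1 array left out, the lone pool was assumed to vary like the other groups. The average over times was not run with only the groups compared, since it uses all 6.

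Of 198 alternatives of the 10 probe set changes called at 12 or 24 h, 183 kept the call and the direction, 15 lost the call and 0 reversed. Of 456 alternatives of the 23 not called, 9 reversed. Each is given with its range over the arrays left out where it turned there. These were Ccl5 at 4 h (-0.90 to 2.01, with -0.04 without CLA 4 h replicate 2), and at 12 h Ccl3 (-0.37 to 2.47), Ccl5 (-0.34 to 0.76), Ccl8 (-0.36 to 0.085) and Ccl9 1417936_at (-0.0012 to 0.54). Ccl11 at 24 h ran from -0.093 to 0.12 and was -0.0074 with arrays scaled to a common median. The cause was not tested. The share of all probe sets called at 24 h ran from 2.51% with only the groups compared to 21.6% with one probe set a gene. Dim signal limits Ccl3, Ccl4 and Ccl5, whose levels outside the CLA pools of 24 h were mostly under 100.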
